A study of Mus musculus with 18 samples.

Results

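The genes described here are the 10 mouse genes Slc6a9, Slc6a5, Glra1, Glra2, Glra3, Glrb, Gldc, Shmt1, Shmt2 and Srr. Of these, Srr makes D-serine, and the others carry glycine across membranes, bind it as receptors or make and break it down. All 10 were picked by name, because glyphosate is an analogue of glycine. All were found among the 27179 genes of the count table and passed the filter on low counts that kept 15863 genes. RNA was sequenced from half-brains of 18 C57BL/6J mice of both sexes. The mice were dosed daily by mouth through a gavage needle over 14 days, starting when they were 4 months old. Doses are stated per kg of body weight and per day. The groups were vehicle (5 mice, 2 males and 3 females), glyphosate at 125 mg/kg (5 mice, 3 males and 2 females), at 250 mg/kg (4 mice, 3 males and 1 female) and at 500 mg/kg (4 mice, 2 males and 2 females). No transgene or disease model was involved, and every mouse was a separate animal. Mice were housed by sex and dose, 3 to a cage, so cage and dose cannot be told apart. Cages are not named in the labels and were not modelled. The mice are named here by their numbers, G1 to G90.

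Glycine is the main fast inhibitory transmitter of the brainstem and spinal cord, where it opens chloride channels built from alpha and beta glycine receptor subunits. In the forebrain it acts mostly as a co-agonist of the NMDA receptor, a role it shares with D-serine. Its level is set by plasma membrane transporters, by the mitochondrial glycine cleavage system, and by enzymes that exchange it with serine while passing a carbon unit to folate.

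Promoter sequences are shown for the 3 members whose levels followed the region markers most closely in the comparisons further on, Slc6a5, Slc6a9 and Srr. Each is the run of 250 bases just before a start listed for the gene by RefSeq on GRCm38.p6, the first in the promoter table used, 5′ to 3′ on the gene's strand, with GC boxes (GGGCGG or CCGCCC, the same motif on either strand) in capitals. The Slc6a5 run lies at chr7:49910049-49910298 on the plus strand, the Slc6a9 run at chr4:117835008-117835257 on the plus strand, and the Srr run at chr11:74925949-74926198 on the minus strand. The Slc6a5 and Srr runs lie inside the full RefSeq spans of these genes given further on, which begin farther upstream.
Slc6a5: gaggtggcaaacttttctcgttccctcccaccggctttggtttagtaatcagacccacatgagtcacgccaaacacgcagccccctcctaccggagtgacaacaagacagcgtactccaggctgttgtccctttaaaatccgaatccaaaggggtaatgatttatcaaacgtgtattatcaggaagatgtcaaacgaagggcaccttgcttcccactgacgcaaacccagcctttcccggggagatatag
Slc6a9: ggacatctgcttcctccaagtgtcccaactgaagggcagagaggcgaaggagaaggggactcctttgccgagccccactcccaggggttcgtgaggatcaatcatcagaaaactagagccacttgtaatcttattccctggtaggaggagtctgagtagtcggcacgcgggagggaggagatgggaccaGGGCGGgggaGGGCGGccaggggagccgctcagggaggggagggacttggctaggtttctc
Srr: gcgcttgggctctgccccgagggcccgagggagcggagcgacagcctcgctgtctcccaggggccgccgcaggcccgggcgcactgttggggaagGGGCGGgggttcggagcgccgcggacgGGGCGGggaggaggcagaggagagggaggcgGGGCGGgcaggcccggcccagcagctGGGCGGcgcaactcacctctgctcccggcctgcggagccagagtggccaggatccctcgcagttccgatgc
The Srr run held 4 GC boxes and 26 CG dinucleotides, the Slc6a9 run 2 GC boxes and 9 CG dinucleotides, and the Slc6a5 run no GC box and 11 CG dinucleotides. Among all 32851 listed promoter windows of this length, 32.7% held a GC box and the median number of CG dinucleotides was 6. None of the 3 runs held TATAAA on either strand, a motif found in 12.4% of the windows. Other starts were also listed for 2 of these genes. For Slc6a9, starts 2 and 3 had 0 GC boxes each and 10 and 8 CG dinucleotides. For Slc6a5, start 2 had 0 GC boxes and 7 CG dinucleotides. The counts for the runs shown thus hold for 1 start of each gene. RefSeq entries were matched for 9 of the 10 members. A match of letters is a description only and no factor binding was measured.

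Libraries held between 3948096 and 11732885 counts, with a median of 7789800. Levels are given as CPM, counts scaled to a common library size by TMM, which also corrects for composition. The libraries differed in their levels of brain region markers. The forebrain glutamatergic neuron list (11 of 11 genes tested, none at 0 in any group) was lowest in the vehicle mouse G9 and the 500 mg/kg mouse G4, whose means on the log2(CPM + 0.5) scale were 3.60 and 3.67, against 5.86 to 7.46 in the other 16 mice. The summed level of that list ranged over 546 to 4838 CPM in vehicle mice, 2294 to 5639 CPM at 125 mg/kg, 1796 to 4284 CPM at 250 mg/kg and 489 to 2693 CPM at 500 mg/kg. The hindbrain list, made almost wholly of Hox genes (13 of 17 genes tested), summed to 2.16 to 321 CPM in vehicle mice, 0.0929 to 13.01 CPM at 125 mg/kg, 5.06 to 60.0 CPM at 250 mg/kg and 13.1 to 94.6 CPM at 500 mg/kg. Hoxa7 had no count in any mouse of the vehicle, 250 and 500 mg/kg groups, and Hoxb7 had none in the 125, 250 and 500 mg/kg groups. In such bulk tissue, fewer cells of a type and less RNA per cell cannot be told apart. Of the 8 marker lists, 500 mg/kg and vehicle mice did not overlap in mean log2(CPM + 0.5) on those of midbrain dopamine neurons and hypothalamus. For the hypothalamus list these means were 0.56 to 3.42 at 500 mg/kg and -0.13 to 0.54 in vehicle mice. Summed CPM of the midbrain list did overlap. The midbrain list (8 of 9 genes tested, none at 0 in any group) summed to 62.7 to 226 CPM in vehicle mice, 73.9 to 137 CPM at 125 mg/kg, 116 to 162 CPM at 250 mg/kg and 152 to 464 CPM at 500 mg/kg. Its mean on the log2(CPM + 0.5) scale was 3.91 to 4.94 in the 500 mg/kg mice, above all other mice, of which the vehicle mouse G18 was highest at 3.73. Mouse G4 carries the label of 500 mg/kg, while the mice numbered nearest to it (G1, G5 and G9) are vehicle mice. It was used as labelled. For several members, values are given with and without G4 or G9, but for the other pathway genes they are not.

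Per kilobase of exon, the receptor beta subunit was by far the most abundant member. Glrb, which every synaptic glycine receptor needs for its anchor to gephyrin, averaged 57.1 ± 12.4 CPM per kilobase (SD, n = 18) and exceeded Slc6a9, at 20.1 ± 8.87 CPM per kilobase, in 18 of 18 mice. Srr followed at 11.0 ± 3.03, Shmt2 at 6.98 ± 1.56 and Glra2 at 5.17 ± 1.67 CPM per kilobase, each above the next in 15 to 17 of the 18 mice. Glra1 (2.51 ± 2.64 CPM per kilobase) came before Slc6a5 (1.57 ± 2.33), Shmt1 (1.18 ± 0.24), Gldc (1.10 ± 0.42) and Glra3 (0.46 ± 0.19). The order of Slc6a5, Shmt1 and Gldc did not hold mouse by mouse, since Slc6a5 exceeded Shmt1 in 8 of 18 mice and Shmt1 exceeded Gldc in 11 of 18.

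**Figure D1:**
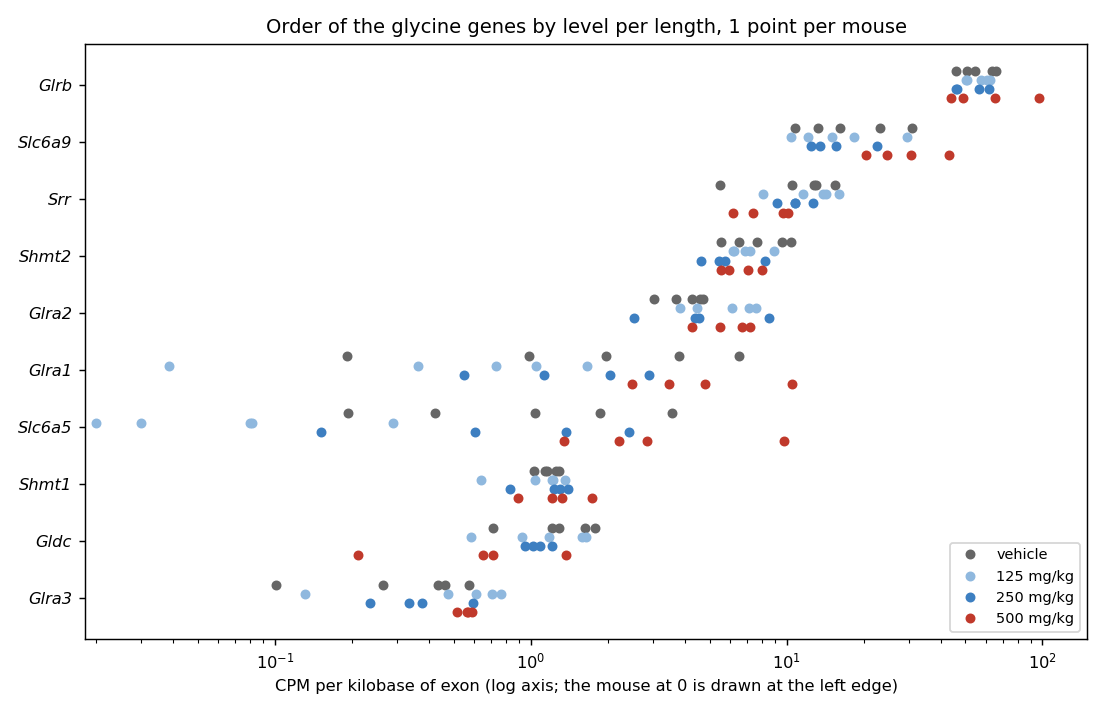
Level of each member per kilobase of exon (x axis, CPM per kilobase, log scale) in each of the 18 mice, with members in rows ordered by mean and colours for dose. Glrb lies to the right of every other member, while Glra1 and Slc6a5 spread over the widest range; the mouse without a Slc6a5 count is drawn at the left edge.

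The spread between mice differed even more than the level. The coefficient of variation over all 18 mice was 148% for Slc6a5 and 105% for Glra1, against 20.4% for Shmt1, 21.7% for Glrb and 22.3% for Shmt2. The remaining members lay between these, from 27.6% for Srr to 44.1% for Slc6a9.

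None of the 10 members passed the test for a dose slope. The slope was fitted as the log2 change per 500 mg/kg with sex as a covariate, by edgeR's quasi-likelihood test with Benjamini-Hochberg adjustment over all 15863 genes, of which 46 (0.29%) had an adjusted p under 0.05. At an unadjusted p under 0.05 the members numbered 4, namely Slc6a9 and Slc6a5 with positive slopes and Gldc and Srr with negative ones, against 13.2% of all genes tested. Slopes were positive for 7 members and negative for 3, with a median of 0.29 for the members and 0.01 for all genes. DESeq2 likewise called 0 members and 1.46% of the genes for which it gave an adjusted p.

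**Figure D2:**
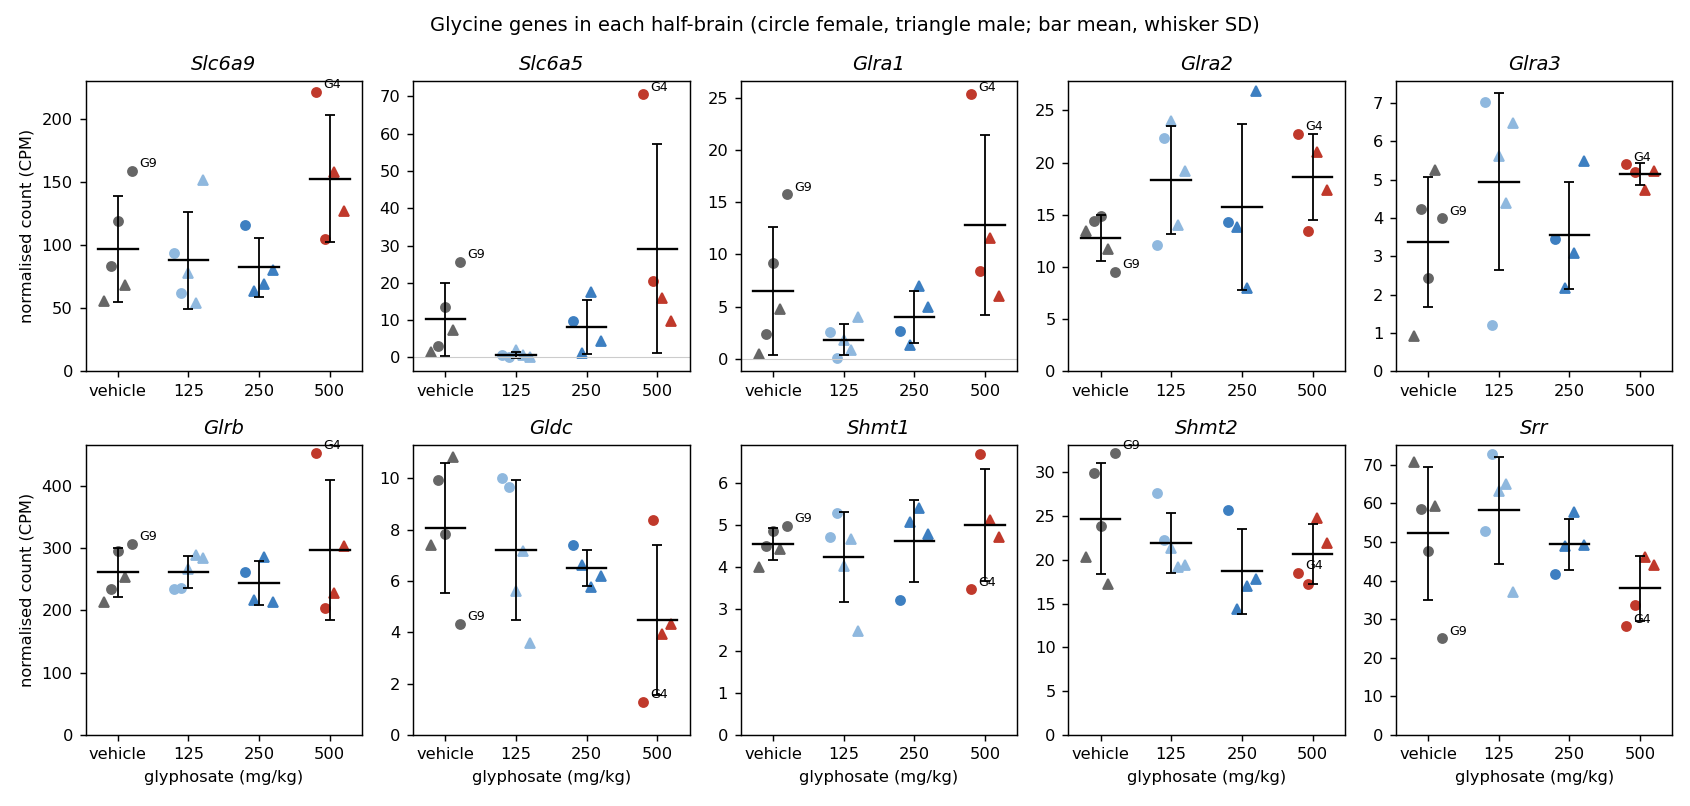
CPM of each member (y axes, linear, from 0) by dose group (x axes), with circles for females, triangles for males, a bar for the mean and whiskers for the SD. At 500 mg/kg the mean of Slc6a5 was 29.1 CPM, with G4 alone at 70.5 CPM, and the 500 mg/kg and vehicle mice overlap for every member.

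The glycine transporters had the most positive slopes relative to their error. Slc6a9 encodes GlyT1, which clears glycine around astrocytes and some glutamatergic synapses (gene 14664, GRCm38 chr4:117835258-117869305, 5141 bases of exon). It was read at 55.6, 68.1, 159, 83.0 and 119 CPM in the vehicle mice, 93.9, 62.1, 77.6, 53.7 and 151 CPM at 125 mg/kg, 116, 63.8, 69.5 and 80.2 CPM at 250 mg/kg, and 221, 105, 158 and 127 CPM at 500 mg/kg. All 4 of the 500 mg/kg mice lay above the vehicle median of 83.0 CPM, but the vehicle mouse G9 exceeded 3 of them. The slope was 0.74 (SE 0.29, 95% interval 0.14 to 1.34), with an adjusted p of 0.277 in edgeR and 0.187 in DESeq2. The 500 mg/kg mice averaged 153 ± 50.6 CPM (SD, n = 4) and the vehicle mice 96.9 ± 42.1 CPM (SD, n = 5), a fitted log2 difference of 0.74 (SE 0.31, edgeR adjusted p = 0.380). The slope depended on the highest dose, since without the 500 mg/kg mice it was -0.12. Exons of Ccdc24 on the opposite strand cover 27.8% of the Slc6a9 exon bases, and the strand setting of the counting was not given in the sources used here, so reads from that stretch cannot be assigned to either gene. Ccdc24 itself had a slope of -0.87 (edgeR adjusted p = 0.465).

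Slc6a5 encodes GlyT2, which reloads glycine into the terminals of glycinergic neurons (gene 104245, chr7:49906984-49963864, 7203 bases of exon). Its levels were 1.39, 7.47, 25.7, 3.04 and 13.4 CPM in the vehicle mice, 0.576, 0, 2.09, 0.585 and 0.216 CPM at 125 mg/kg, 9.87, 1.09, 17.5 and 4.36 CPM at 250 mg/kg, and 70.5, 20.4, 15.9 and 9.68 CPM at 500 mg/kg. The lowest values were those of the 125 mg/kg mice, where all 5 libraries together held 24 counts, and the highest was that of G4. These low values carry wide counting error: the mouse at 2.09 CPM had 13 counts (exact Clopper-Pearson 95% interval 1.11 to 3.57 CPM), and the mouse without a count allows a level of up to 0.279 CPM by the limit of 3 counts, and of up to 0.343 CPM by the exact interval. Reads are not independent molecules, so such intervals and limits cover counting error only.

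The Slc6a5 slope was 2.04 (SE 0.87, 95% interval 0.22 to 3.85, edgeR adjusted p = 0.324), and 1.39 without G4. It was 0.13 without the 500 mg/kg mice, 5.78 without the vehicle mice and 4.49 with limma-voom, so its size rested on which mice and which tool were used. The 500 mg/kg mice averaged 29.1 ± 27.95 CPM (SD, n = 4) and the vehicle mice 10.2 ± 9.84 CPM (SD, n = 5), a fitted log2 difference of 1.55 (SE 0.72, edgeR adjusted p = 0.416), which was 0.83 without G4 and 2.07 without G9. The 125 mg/kg mice averaged 0.693 ± 0.819 CPM (SD, n = 5) against those same vehicle mice, a fitted log2 difference of -3.72 (SE 0.98, 95% interval -5.79 to -1.65), with an unadjusted p of 0.00143 and an adjusted p of 0.323 in edgeR and 0.069 in DESeq2. The 250 mg/kg mice, at 8.19 ± 7.16 CPM (SD, n = 4), differed from vehicle by 0.23 (SE 0.81, edgeR adjusted p = 0.9999). The levels thus did not follow dose step by step, and the 3 contrasts share the vehicle mice.

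Across the 4 groups taken without order, Slc6a5 was the member with the smallest p. The edgeR test for any difference gave Slc6a5 an unadjusted p of 0.000496 and an adjusted p of 0.116, while DESeq2's likelihood ratio test gave an adjusted p of 0.0184 and called it. edgeR called 0 of 10 members and 0.0441% of all genes in this test, and DESeq2 called 1 of 10 members and 3.4% of genes. At an unadjusted p under 0.05 edgeR listed 2 members, Slc6a5 and Glra1, beside 15% of all genes, and its unadjusted p for Glra1 was 0.0277.

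Among the receptor subunits, Glra1 varied with Slc6a5. Glra1 is the alpha subunit of most adult glycine receptors of the brainstem and spinal cord, and its mutations cause startle disease (gene 14654, chr11:55514239-55608198, 2414 bases of exon). It was read at 0.462, 4.73, 15.7, 2.38 and 9.13 CPM in the vehicle mice, 2.53, 0.0929, 1.77, 0.877 and 3.99 CPM at 125 mg/kg, 2.71, 1.33, 7.01 and 4.92 CPM at 250 mg/kg, and 25.3, 8.38, 11.6 and 5.99 CPM at 500 mg/kg. G4 was again the highest and G9 the next. The slope of 1.43 (SE 0.70, 95% interval -0.02 to 2.89) had an edgeR adjusted p of 0.385. It was 0.94 without G4, -0.93 without the 500 mg/kg mice and 3.68 without the vehicle mice.

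The other receptor subunits showed smaller slopes. Glrb had values from 204 to 453 CPM at 500 mg/kg, where G4 stood at 453 CPM and the others at 204 to 303 CPM, and from 214 to 307 CPM in vehicle mice. Its slope was 0.18 (SE 0.18, 95% interval -0.19 to 0.55, edgeR adjusted p = 0.711), and without G4 it was -0.13. Glra2, an alpha subunit used widely in the developing brain and kept in parts of the adult forebrain, had 13.4 to 22.7 CPM at 500 mg/kg and 9.53 to 14.8 CPM in vehicle mice, with a slope of 0.40 (SE 0.28, edgeR adjusted p = 0.559) that was 0.26 without G4. Glra3, an alpha subunit of the dorsal spinal cord that also occurs in the brain, had 4.73 to 5.40 CPM at 500 mg/kg and 0.924 to 5.26 CPM in vehicle mice, with a slope of 0.41 (SE 0.43, edgeR adjusted p = 0.720) that was 0.22 without the vehicle mouse G1.

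The enzymes of glycine turnover and D-serine synthesis leaned the other way or lay near 0. Gldc, the decarboxylase that starts glycine cleavage in mitochondria (gene 104174, chr19:30098441-30175441), was read at 7.39, 10.8, 4.32, 9.92 and 7.85 CPM in the vehicle mice, 10.02, 9.66, 5.62, 7.16 and 3.56 CPM at 125 mg/kg, 7.40, 6.63, 5.78 and 6.19 CPM at 250 mg/kg, and 1.29, 8.38, 3.94 and 4.33 CPM at 500 mg/kg. G4 was the lowest of all mice, and at 500 mg/kg 1 mouse lay above the vehicle median of 7.85 CPM. The slope was -0.84 (SE 0.37, 95% interval -1.61 to -0.07, edgeR adjusted p = 0.338), and -0.50 without G4. Gldc averaged 4.48 ± 2.93 CPM (SD, n = 4) at 500 mg/kg and 8.06 ± 2.53 CPM (SD, n = 5) in vehicle mice, a fitted log2 difference of -0.86 (SE 0.39, edgeR adjusted p = 0.414), which was -0.52 without G4 and -1.32 without G79.

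Srr, serine racemase, makes the D-serine that occupies the glycine site of NMDA receptors (gene 27364, chr11:74904027-74927533). It was read at 70.7, 59.4, 25.05, 58.4 and 47.7 CPM in the vehicle mice, 52.7, 72.8, 63.1, 65.1 and 37.0 CPM at 125 mg/kg, 41.7, 49.1, 57.8 and 49.1 CPM at 250 mg/kg, and 28.1, 33.7, 46.0 and 44.1 CPM at 500 mg/kg. All 4 of the 500 mg/kg mice lay below all vehicle mice other than G9. The slope was -0.56 (SE 0.23, 95% interval -1.04 to -0.08), with an adjusted p of 0.300 in edgeR and 0.249 in DESeq2. Srr averaged 38.0 ± 8.497 CPM (SD, n = 4) at 500 mg/kg and 52.3 ± 17.3 CPM (SD, n = 5) in vehicle mice, a fitted log2 difference of -0.49 (SE 0.23, edgeR adjusted p = 0.432). Tsr1 on the opposite strand covers 27.2% of the Srr exon bases, so the same limit of strand applies, and Tsr1 had a slope of -0.33 (edgeR adjusted p = 0.526).

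The serine hydroxymethyltransferases, which convert serine and glycine into each other in the cytosol (Shmt1) and in mitochondria (Shmt2), had slopes close to 0. Shmt1 averaged 5.003 ± 1.33 CPM (SD, n = 4) at 500 mg/kg and 4.55 ± 0.387 CPM (SD, n = 5) in vehicle mice, with a slope of 0.18 (SE 0.22, 95% interval -0.28 to 0.64, edgeR adjusted p = 0.772). Shmt2 averaged 20.6 ± 3.42 CPM (SD, n = 4) at 500 mg/kg and 24.7 ± 6.31 CPM (SD, n = 5) in vehicle mice, with a slope of -0.19 (SE 0.17, 95% interval -0.55 to 0.16, edgeR adjusted p = 0.664). With 1 mouse left out the slopes ranged from 0.0058 to 0.35 for Shmt1 and from -0.37 to -0.065 for Shmt2. Both intervals lay within 1 log2 unit of 0, whereas that of Slc6a5 reached 3.85.

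In the contrasts with vehicle, edgeR called 0 of 10 members at each dose. For 500 mg/kg, 3 members (Slc6a9, Slc6a5 and Gldc) had an unadjusted p under 0.05 beside 11.6% of all genes, 0.0189% of genes were called, and DESeq2 called 0 members and 1.25% of genes. For 250 mg/kg, 0 members had an unadjusted p under 0.05 beside 3.76% of genes, and edgeR and DESeq2 called 0% of genes. For 125 mg/kg, 1 member (Slc6a5) had an unadjusted p under 0.05 beside 11.2% of genes, edgeR called 0% of genes, and DESeq2 called 0 members and 0.252% of genes. The CPM of 500 mg/kg and vehicle mice overlapped for all 10 members, while 3.25% of all genes had groups that did not overlap.

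**Figure D3:**
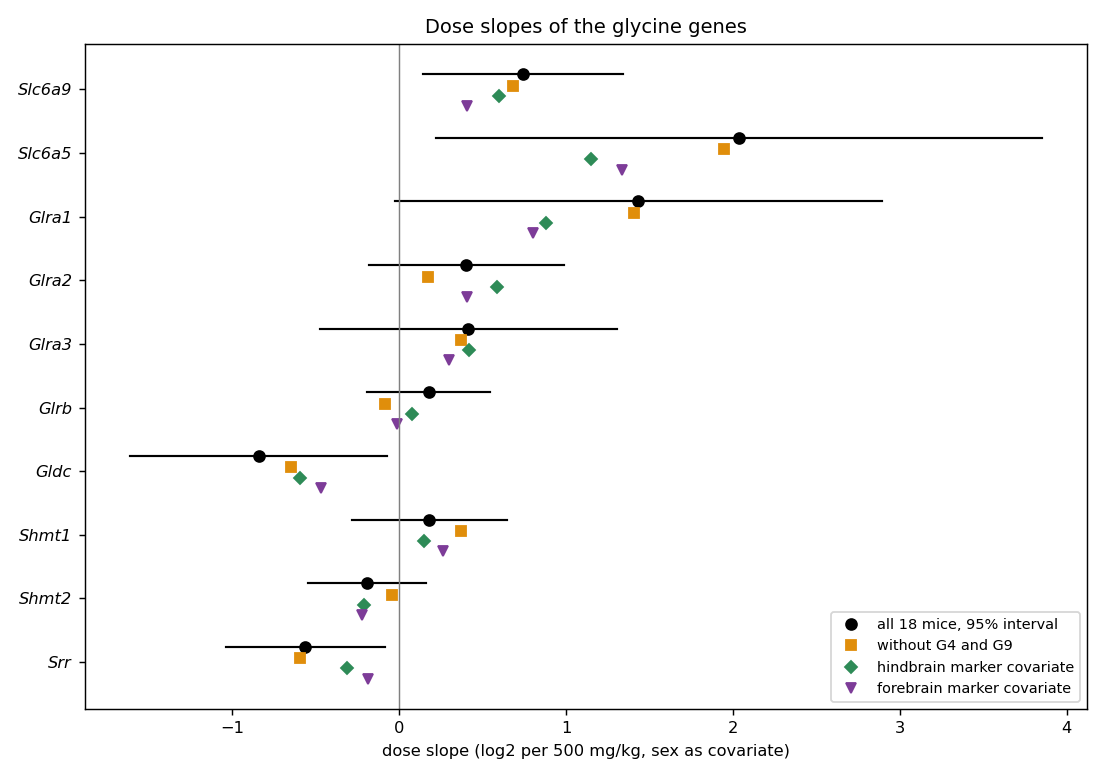
Dose slope of each member (x axis, log2 per 500 mg/kg) from all 18 mice with its 95% interval (black), without G4 and G9 (squares), and with the mean hindbrain (diamonds) or forebrain (triangles) marker level as an added covariate. The Slc6a5 slope was 2.04 from all mice, 1.95 without G4 and G9, and 1.15 with the hindbrain covariate.

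The levels of several members moved with region markers from mouse to mouse. Slc6a5 followed the hindbrain list over all 18 mice, with Pearson's r = 0.86 and Spearman's rho = 0.95 (permutation p = 1e-05 for each, the smallest that 100000 resamples can give, adjusted p = 0.0004 and 0.000267 over 80 relations of 10 members with 8 marker lists). Without G4 and G9, the mice farthest from the median of the markers, r was 0.87, and after removing the mean of each dose group it was 0.86. Glra1 followed the same list with r = 0.77 and rho = 0.81 (permutation p = 0.00016 and 5e-05, adjusted p = 0.0016 and 0.00096), r = 0.68 without G4 and G9, and r = 0.69 within dose groups. The hindbrain markers averaged -0.53 on the log2(CPM + 0.5) scale at 125 mg/kg, the group with the lowest Slc6a5, against 0.93 in vehicle mice.

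The midbrain dopamine list, on which the 500 mg/kg mice lay above all others, also moved with these members over the 18 mice. Its relation to Glra1 had r = 0.79 and rho = 0.78 (permutation p = 0.00014 and 0.00018, adjusted p = 0.0016 and 0.00206), with r = 0.69 without the 2 farthest mice, G4 and G87, 0.78 without G4 and G9, and 0.73 within dose groups. Its relation to Slc6a9 had r = 0.79 and rho = 0.77 (permutation p = 0.00013 and 0.00037, adjusted p = 0.0016 and 0.00329), with r = 0.67 without the 2 farthest mice and 0.75 within dose groups. For Slc6a5 r was 0.68 and rho 0.61 (permutation p = 0.00193 and 0.00814, adjusted p = 0.00908 and 0.0383), with r = 0.55 without the 2 farthest mice and 0.46 within dose groups. Over the 16 mice without G4 and G9 the Slc6a5 relation had r = 0.62 and rho = 0.52 (permutation, adjusted p = 0.0549 and 0.161), which did not pass. For Srr r was -0.69 and rho -0.82 (permutation p = 0.0019 and 8e-05, adjusted p = 0.00908 and 0.00107), with r = -0.67 without the 2 farthest mice and -0.60 within dose groups.

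Since G4 and G9 stood apart on the forebrain glutamatergic neuron list, relations with that list are given over the other 16 mice. Srr followed it with r = 0.89 and rho = 0.86 (permutation p = 3e-05 and 9e-05, adjusted p = 0.0012 and 0.00347), r = 0.85 without the 2 farthest of these mice, and r = 0.83 within dose groups. Slc6a9 ran against it with r = -0.78 and rho = -0.75 (permutation p = 0.00065 and 0.00144, adjusted p = 0.00743 and 0.0165), and r = -0.76 within dose groups. Slc6a9 also followed the astrocyte list over all 18 mice, with r = 0.82 and rho = 0.86 (permutation p = 2e-05 and 1e-05, adjusted p = 0.0004 and 0.000267) and r = 0.80 within dose groups. It was not alone in this. Glra1 had r = 0.78 and rho = 0.66 with that list (permutation, adjusted p = 0.0016 and 0.0217). Glrb had r = 0.60 and rho = 0.59 (permutation, adjusted p = 0.0321 and 0.0494). Srr had r = -0.73 and rho = -0.74 (permutation, adjusted p = 0.00357 and 0.0044). Over the 16 mice without G4 and G9 these adjusted p were 0.0245 and 0.161 for Glra1, 0.203 and 0.282 for Glrb, and 0.0549 and 0.072 for Srr. The oligodendrocyte list averaged 7.80 at 500 mg/kg and 7.09 in vehicle mice on the log2(CPM + 0.5) scale. Gldc ran against it with r = -0.78 and rho = -0.63 (permutation p = 0.00042 and 0.00619, adjusted p = 0.0028 and 0.0309), with r = -0.52 without the 2 farthest mice and -0.70 within dose groups. Over the 16 mice without G4 and G9 this relation had r = -0.59 and rho = -0.55 (permutation, adjusted p = 0.0657 and 0.144), which did not pass. Slc6a9 followed the oligodendrocyte list with r = 0.74 and rho = 0.66 (permutation p = 0.0004 and 0.00379, adjusted p = 0.0028 and 0.0233), with r = 0.61 without the 2 farthest mice and 0.65 within dose groups. Over those 16 mice it had r = 0.64 and rho = 0.62 (permutation, adjusted p = 0.0496 and 0.072). Of the 80 relations, 25 passed a permutation adjusted p under 0.05 by Pearson's r over 18 mice and 14 over the 16 mice without G4 and G9. Fewer passed by Spearman's rho in both sets of mice. Relations with these lists were computed for the members only. No share over all genes can be set beside these counts, so they do not mark the members off from other genes.

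**Figure D4:**
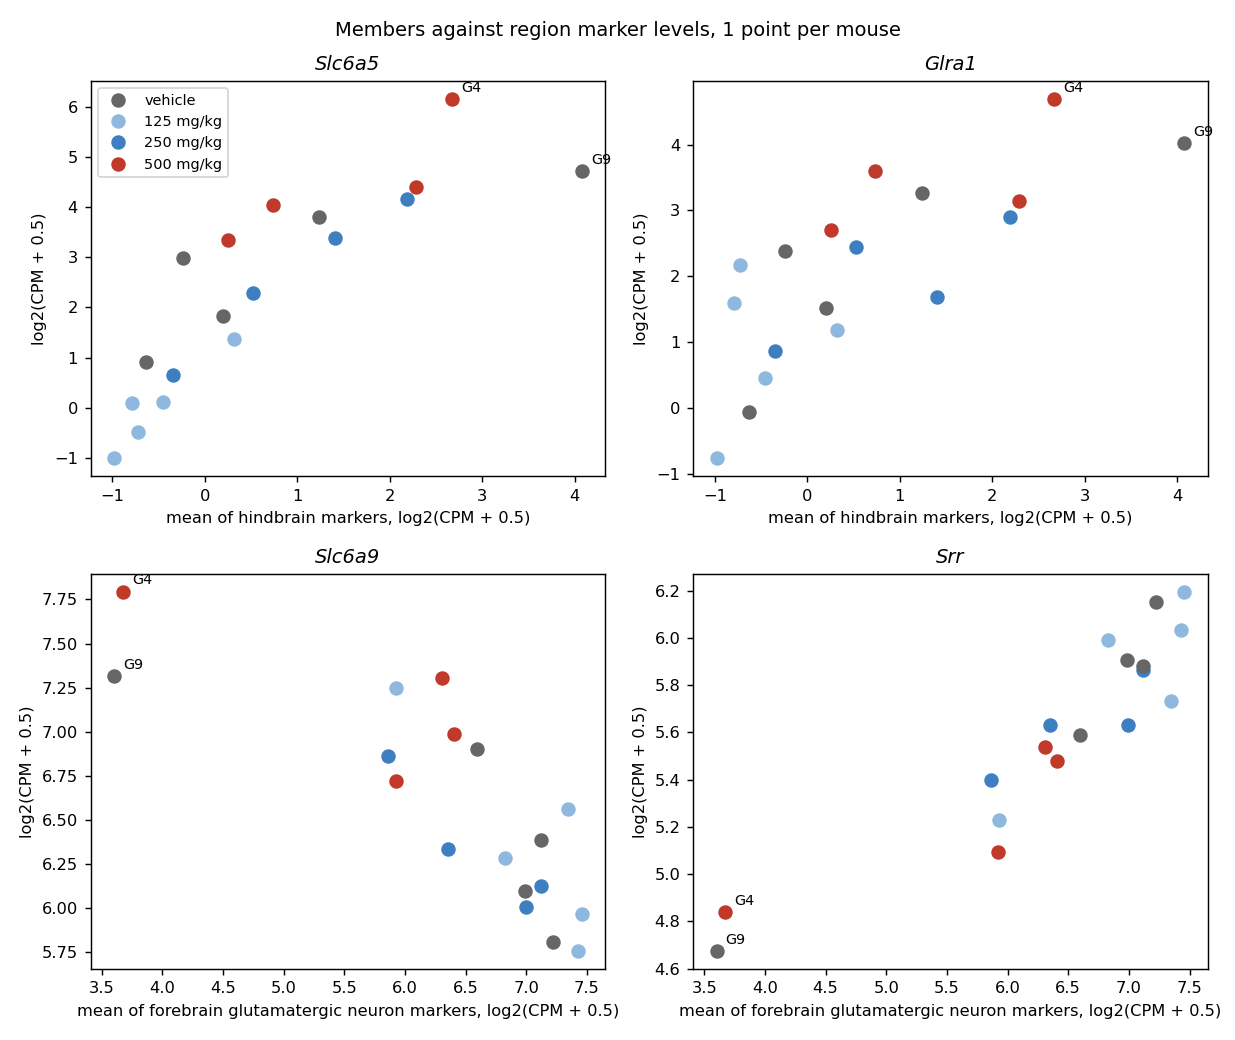
Member level (y axes, log2(CPM + 0.5)) against the mean level of a marker list (x axes, log2(CPM + 0.5)), 1 point per mouse, coloured by dose. Slc6a5 and Glra1 run upward with the hindbrain list, Srr runs upward and Slc6a9 downward along the forebrain list, and G4 and G9 lie apart on the forebrain axis.

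With the mean hindbrain marker level as a covariate, the slopes of Slc6a5, Glra1, Slc6a9, Gldc and Srr were 1.15, 0.88, 0.60, -0.59 and -0.31, and 0 members had an unadjusted p under 0.05. With the forebrain list as the covariate they were 1.34, 0.80, 0.41, -0.47 and -0.18, and again 0 members had an unadjusted p under 0.05. Under both covariates these 5 slopes were smaller in size than without one and kept their sign. The other 5 members did not all move that way. The slopes of Glra2, Glra3, Glrb, Shmt1 and Shmt2 were 0.40, 0.41, 0.18, 0.18 and -0.19 without a covariate. They were 0.59, 0.42, 0.076, 0.15 and -0.21 with the hindbrain list, and 0.41, 0.30, -0.013, 0.26 and -0.22 with the forebrain list. The midbrain dopamine, hypothalamus and oligodendrocyte lists were added as covariates after seeing the data, and under each of them 0 members had an unadjusted p under 0.05. With the midbrain list the slopes of Slc6a5, Glra1, Slc6a9, Gldc and Srr were -0.05, -1.42, -0.60, -0.08 and 0.17, so that 4 of the 5 turned sign. In that fit the covariate and the highest dose can hardly be separated, since the 500 mg/kg mice do not overlap the others on it. With the hypothalamus list they were 1.97, 1.001, 0.73, -0.88 and -0.43, and with the oligodendrocyte list 1.90, 0.82, 0.23, -0.33 and -0.39. Calls over all genes fell as well: at an adjusted p under 0.05, edgeR called 46 genes for a dose slope without a marker covariate. It called 7, 11, 1, 2 and 8 with the hindbrain, forebrain, midbrain, hypothalamus and oligodendrocyte lists. The share of all genes with an unadjusted p under 0.05 in these 5 fits is not given here. Marker levels and dose groups were not independent in these mice, and the part of tissue composition in the dose slopes was not tested beyond these fits.

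Members also moved with each other. Of the 45 pairs of members over the 18 mice, 10 passed a permutation adjusted p under 0.05 by Pearson's r, of which 4 were positive and 6 negative. By Spearman's rho fewer passed, namely Slc6a9 with Glra1, Slc6a9 with Srr, Slc6a5 with Glra1, and Glra1 with Srr. Slc6a5 and Glra1 had r = 0.87 and rho = 0.87 (permutation p = 2e-05 for each, adjusted p = 0.00045), r = 0.79 without the 2 farthest mice and r = 0.79 within dose groups. Slc6a9 and Srr had r = -0.85 and rho = -0.88 (permutation p = 1e-05 for each, adjusted p = 0.00045), r = -0.79 without the 2 farthest mice and r = -0.83 within dose groups.

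Over all genes averaging at least 1 CPM, those most like each member were ranked by Pearson's r of log2(CPM + 0.5) over the 18 mice, which share library and tissue composition. Slc6a5 was most like Vwa7 (r = 0.95), Amer1 (0.94) and Tbc1d4 (0.93), and Glra1 most like Lingo4 (0.96), Mab21l2 (0.94) and Akap12 (0.94). Slc6a9 was most like Kcnh2 (0.96), Kcnj10 (0.95), which encodes an astrocyte potassium channel, and Pygm (0.95). The genes most like Srr included Skil (0.97) and Lmo4 (0.96), and Gldc was most like Dgkz (0.91), Gal3st3 (0.91) and Nab2 (0.90). Glrb was most like Nars (0.94), Ghitm (0.93) and Ube2v2 (0.93). For Glra2 the first was Mc3r (0.86), for Glra3 Heyl (0.86), for Shmt2 Sod3 (0.84) and for Shmt1 Pwp2 (0.81).

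Sex was examined because males and females were unequally spread over doses. Between males and females, edgeR called 0 of 10 members and 0.0441% of genes, DESeq2 called 0 members and 0.138% of genes, and 1 member (Shmt2) had an unadjusted p under 0.05 beside 7.99% of genes. The log2 difference of Shmt2, males minus females, was -0.30 (SE 0.13, edgeR adjusted p = 0.622). For a difference in dose slope between the sexes, edgeR and DESeq2 called 0 of 10 members and 0% of genes, and 1 member, again Shmt2, had an unadjusted p under 0.05 beside 1.65% of genes. In males Shmt2 was read at 20.3 and 17.3 CPM with vehicle, 21.4, 19.2 and 19.4 CPM at 125 mg/kg, 14.3, 17.0 and 17.9 CPM at 250 mg/kg, and 24.8 and 21.9 CPM at 500 mg/kg. In females it was read at 32.2, 29.9 and 23.8 CPM with vehicle, 27.6 and 22.3 CPM at 125 mg/kg, 25.6 CPM at 250 mg/kg, and 18.5 and 17.3 CPM at 500 mg/kg. The slope was 0.25 in males and -0.67 in females, a difference of 0.91 (SE 0.27, 95% interval 0.34 to 1.48) with an unadjusted p of 0.00359 and an adjusted p of 0.9999 in edgeR.

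A further 41 genes of glycine, serine and folate metabolism and of the NMDA receptor were examined, of which 38 passed the filter. edgeR called 0 of these 38 for a dose slope, and 8 had an unadjusted p under 0.05, 7 with a positive slope and 1 with a negative one, beside the 13.2% of all genes. Their median slope was 0.08, with 25 positive and 13 negative.

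The smallest p among them was that of Slc38a2, a sodium-coupled carrier of small neutral amino acids that includes glycine among its substrates. It was read at 440, 280, 324 and 322 CPM at 500 mg/kg and at 226, 261, 260, 223 and 237 CPM in vehicle mice, groups that did not overlap. Its slope was 0.55 (SE 0.13) with an unadjusted p of 0.000582 and an adjusted p of 0.0847 in edgeR, while DESeq2 gave an adjusted p of 0.00908 and called it. It was the 1 gene of the 38 whose 500 mg/kg and vehicle mice did not overlap, beside 3.25% of all genes, so the list held no more such genes than the background. In the same list Slc32a1, the vesicular carrier of GABA and glycine, averaged 276 ± 84.3 CPM (SD, n = 4) at 500 mg/kg and 199 ± 31.1 CPM (SD, n = 5) in vehicle mice, with a slope of 0.45 (SE 0.20, edgeR adjusted p = 0.338).

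Of the 7 NMDA receptor subunits, 3 had an unadjusted p under 0.05, all with positive slopes, beside 13.2% of all genes. The slopes were 0.71 (SE 0.25, edgeR adjusted p = 0.221) for Grin3a and 0.58 (SE 0.27, edgeR adjusted p = 0.373) for Grin3b, which encode the glycine-binding GluN3 subunits, and 0.82 (SE 0.32, edgeR adjusted p = 0.285) for Grin2d. Grin3a averaged 72.5 ± 14.3 CPM (SD, n = 4) at 500 mg/kg and 44.2 ± 15.7 CPM (SD, n = 5) in vehicle mice. Grin1, the obligate subunit and the most highly counted of them, had a slope of -0.23 (SE 0.16, edgeR adjusted p = 0.567). The slopes of Grin2a, Grin2b and Grin2c were also negative, at -0.41 (SE 0.34), -0.51 (SE 0.45) and -0.14 (SE 0.29).

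In serine synthesis, Psat1, the transaminase of the pathway, had a slope of 0.41 (SE 0.18, edgeR adjusted p = 0.344) and Psph, the phosphatase of its last step, a slope of -0.46 (SE 0.20, edgeR adjusted p = 0.341). Gatm, which uses glycine to make the precursor of creatine, had a slope of 0.57 (SE 0.24, edgeR adjusted p = 0.320). The partners of Gldc in glycine cleavage (Amt, Gcsh and Dld) had slopes between -0.17 and 0.31, and Dld, the most highly counted, averaged 86.8 ± 18.6 CPM (SD, n = 4) at 500 mg/kg and 86.6 ± 17.1 CPM (SD, n = 5) in vehicle mice. Slc1a4, a neutral amino acid carrier that takes D-serine, had a slope of 0.10 (SE 0.15). None of the 9 folate genes had an unadjusted p under 0.05.

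**Figure D5:**
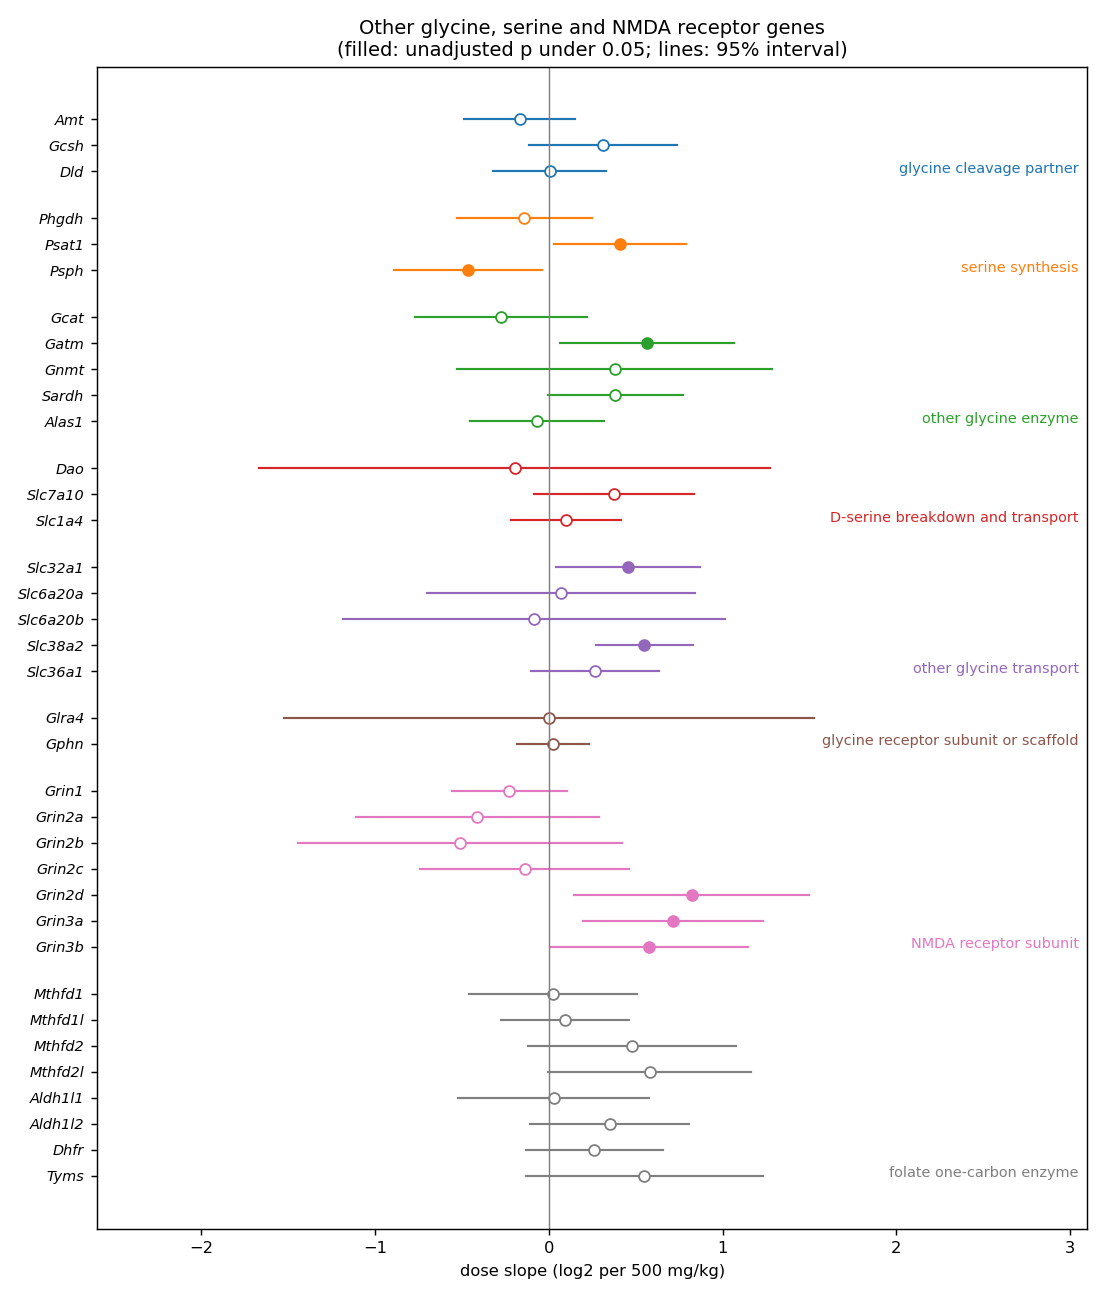
Dose slopes (x axis, log2 per 500 mg/kg, with 95% intervals) of 36 of the 38 other pathway genes tested, coloured by list, filled where the unadjusted p was under 0.05. Slc38a2 has the narrowest of the filled intervals, around 0.55, and the 3 filled NMDA receptor subunits lie at 0.58 to 0.82.

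For any difference among the 4 groups, DESeq2 called 2 of the 38, Slc38a2 (adjusted p = 0.0271) and Alas1 (adjusted p = 0.0149), beside 3.4% of all genes, and edgeR called 0. Alas1, named here after its values were seen, uses glycine in the first step of haem synthesis. It was read at 15.7, 16.8, 17.3, 16.1 and 17.8 CPM in the vehicle mice, 14.9, 11.9, 12.2, 13.3 and 10.6 CPM at 125 mg/kg, 19.5, 20.1, 16.6 and 20.1 CPM at 250 mg/kg, and 12.2, 14.2, 16.03 and 15.03 CPM at 500 mg/kg. The 125 mg/kg mice lay below all vehicle mice, which was so of Alas1 and Grin2c among the 38 and, in the other direction, of Slc1a4, while 2.78% of all genes had groups that did not overlap in that contrast. The edgeR adjusted p for Alas1 was 0.119, and its levels did not change in 1 direction with dose.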

How the data were processed

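The authors extracted total RNA from half-brains, depleted ribosomal RNA, sequenced it in pairs of 100 bases, aligned reads with STAR 2.7.5b to GRCm38 and counted them per gene with featureCounts. The annotation and strand setting are not given in the sources used here. The deposited values are raw counts for 27179 Entrez gene numbers, of which 25275 matched a RefSeq symbol. From these counts, genes were kept with filterByExpr (minimum count 10, by dose group), scaled by TMM and tested with edgeR 4.0.16 (glmQLFit in legacy mode, R 4.3.3), with dose divided by 500 or as a factor, and sex as a covariate. DESeq2 1.42.0, limma-voom 3.58.1, other filters, covariates and omitted mice served as alternatives. Only the edgeR dose regression was tried on a simulated data set, and its outcome is not given here. The threshold was an adjusted p of 0.05. Library totals of 3948096 to 11732885 counts set the precision. Pairs of mice in a group differed beyond sampling noise (chi-square per degree of freedom from 9.68 to 83.8 over 32 pairs), so none was counted as a duplicate. The mice were separate animals.

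The members and gene lists were chosen with earlier results of these data known. All 10 members were named. Of the other pathway genes, those with an unadjusted p under 0.05 in the dose regression (at most 3 a list) and the most highly counted gene of each list were named. For each member, the 3 genes most like it by Pearson's r were ranked. A few of the genes that these rules name are not reported here. Marker lists were described by their summed CPM and mean log2(CPM + 0.5). Besides the hindbrain, forebrain and astrocyte lists, lists for cerebellar granule cells, midbrain dopamine neurons, thalamus, hypothalamus and oligodendrocytes entered the relations.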

Additional observations from a re-analysis of the deposited data

Results flagged for a closer look

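Of the 40 sets of values (10 members in 4 dose groups) examined for a mouse far from the others of its group, 1 held such a mouse. Slc6a5 was read at 2.09 CPM in the 125 mg/kg mouse G34, against 0 to 0.585 CPM in the other 4 mice of that group, and the gap to the nearest of them was 0.72 of the group's range. Chance gives such a gap in about 1 of 20 sets. The same mouse had the highest hindbrain marker level of its group, 0.32 on the log2(CPM + 0.5) scale. G4 did not pass the limit of this measure for any member, although it was the highest mouse of its group for Slc6a9, Slc6a5, Glra1, Glra2, Glra3 and Glrb. For Slc6a5 the gap between G4 (70.5 CPM) and the next mouse (20.4 CPM) was a larger share of the group's range than that of G34. It fell just under the limit, which is higher for groups of 4 mice than for groups of 5.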

How the results depend on the processing

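No member was called in any of the 7 comparisons under any alternative or with any mouse left out (0 to 0 members over the 18 fits of each comparison), with 1 exception: DESeq2 called 1 member, Slc6a5, for any difference among the 4 groups. Signs held for the member slopes and 500 mg/kg contrasts apart from the following. Without the 500 mg/kg mice the slopes of Slc6a9, Glra1 and Glrb were -0.12, -0.93 and -0.14. The Glrb slope was -0.013 with the forebrain covariate. With G4 and G9 both left out, a choice made after seeing the data, the Glrb slope was -0.084 and its 500 mg/kg contrast -0.050. The Shmt2 slope was 0.25 in males only. The following fits were also added after seeing the data. With the midbrain dopamine covariate the slopes of Slc6a9, Slc6a5, Glra1, Glra3, Glrb and Srr were -0.600, -0.0541, -1.417, -0.489, -0.260 and 0.172, and the 500 mg/kg contrasts of Slc6a9, Glra1, Glra3, Glrb and Srr -0.579, -1.495, -0.566, -0.273 and 0.211. With the oligodendrocyte covariate the slopes of Glra2 and Glrb were -0.0122 and -0.0445 and the Glrb contrast -0.0310, and with the hypothalamus covariate the Shmt1 contrast was -0.0181. With 1 mouse left out, the Glrb slope ranged from -0.13 to 0.33 (lowest without G4), its 500 mg/kg contrast from -0.11 to 0.36, and the Shmt1 contrast from -0.029 (without G79) to 0.31. The cause was not tested.

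The 4 members at an unadjusted p under 0.05 for a dose slope became 0 without G4, and 2 without G15 or without G87. With 1 mouse left out their number ranged from 0 to 5. In the 500 mg/kg contrast, 3 became 0 without G1, G4, G5, G15 or G87, 1 without G18 or G40, and 5 without G9. For any difference, 2 became 1 without G4, G25, G40 or G87 and 4 without G9, G45 or G79. At 125 mg/kg, 1 became 2 without G1, G4, G15, G25, G29, G45, G66 or G71, and at 250 mg/kg, 0 became 1 without G49. Between the sexes, 1 became 0 without G1, G5, G9, G15, G25 or G49, 2 without G34, G66 or G79, and 3 without G29 or G45. Over all genes, 46 dose calls became 227 with DESeq2, 78 with 1 surrogate variable, 29 without the filter on low counts, 27 with dose as rank, 11, 7, 8, 2 and 1 with the forebrain, hindbrain, oligodendrocyte, hypothalamus and midbrain covariates, 7 without vehicle mice, 2 without G4 and G9, and 0 in males, in females or without the 500 mg/kg mice. With 1 mouse left out they ranged from 2 (without G4) to 127 (without G79). Calls for any difference, 7 in all, became 539 with DESeq2, 11 with 1 surrogate variable, 2 without G4 and G9, 4, 2, 0 and 0 with the oligodendrocyte, hypothalamus, hindbrain and midbrain covariates, and 1 (without G25) to 22 (without G45) with 1 mouse left out. Calls at 500 mg/kg, 3 in all, became 171 with DESeq2, 20 with 1 surrogate variable, 9 without the filter, 8 with 10 counts in every library, 7 without the sex term, 5 with the forebrain covariate, 1 with only the groups compared or without G4 and G9, 0 with the oligodendrocyte, hypothalamus or midbrain covariate, and 0 (without G4, G5, G15 or G90) to 19 (without G45) with 1 mouse left out. At 125 mg/kg, 0 became 40 with DESeq2 and 1 with the hypothalamus covariate, at 250 mg/kg 0 became 1 with the oligodendrocyte covariate, and between the sexes 7 became 18 with DESeq2 and 1 with 10 counts in every library. Slc6a5, Glra1 and Glra3 were not tested when every library needed 10 counts. Of the 30 most alike genes, 27 stayed with a pseudocount of 1 CPM and 21 without G4. No paired analysis was possible because each mouse has a number of its own. The labels also carry tag numbers, 41 to 46, whose meaning is not stated. Tag 43 was shared by 3 mice at 125 mg/kg and 1 vehicle mouse and tag 46 by 2 mice at 500 mg/kg and 2 vehicle mice, while tag 44 held G4 and G79, both at 500 mg/kg, and tag 45 held all 4 mice at 250 mg/kg and no others, so tag and dose cannot be told apart there. With the tag as a block, edgeR called 0 genes for a dose slope, 0 members had an unadjusted p under 0.05, the slopes of Glra3, Shmt1 and Shmt2 turned to -0.171, -0.209 and 0.116, and those of Slc6a9, Slc6a5, Gldc and Srr were 0.89, 1.70, -0.46 and -0.18. At these depths Slc6a5 at 125 mg/kg rested on 24 counts.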
